A study of Mus musculus with 2 samples.

Results

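Transcript levels of 10 genes of the interleukin-1 (IL-1), interleukin-6 (IL-6) and tumour necrosis factor (TNF) families were compared between the lungs of mice with an endothelial Cre and floxed Foxf1 alleles and those of control mice. The genes were Il1b, Il18, Il33, Il1rn, Il1r1, Il1r2, Il1rl1, Il6, Il6ra and Tnf, chosen by symbol, 10 of the 22072 genes in the deposited tables and 15 of the 28107 transcript records. The KO mice carried floxed Foxf1 alleles (fl/fl) and the transgene Pdgfb-iCreER, whose Cre recombinase is activated by tamoxifen and driven by the Pdgfb promoter, which is active mainly in endothelium, and the control mice carried the floxed Foxf1 alleles without Cre. All mice were on a C57/BL6 background. Whole-lung RNA of several mice per genotype went into a pool that was sequenced as 1 library. The sources used here do not give the number, age or sex of the mice, or the time of Cre activation. Effects of Cre itself cannot be told apart from those of Foxf1.

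With 1 library per genotype, differences have no replicate check and no test was possible. Values are FPKM, a read level scaled for transcript length and library size, summed over the transcripts of a gene. Read numbers were estimated from the deposited coverage at about 10329000 for the KO library and 13038000 for the control library. Intervals after folds are 95% counting intervals from these estimates. They leave out the spread between mice, pools and library preparations. Foxf1, listed as Foxf1a, had 15.7 FPKM in the KO pool and 72.1 FPKM in the control pool, 4.59-fold lower (3.97 to 5.34), although no source used here gives the part that the floxed alleles lose. Lung markers were present in both pools, with the alveolar type 2 gene Sftpc at 13793 FPKM in the KO pool and 15925 FPKM in the control pool.

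The IL-1 family joins cytokines that are made as precursors or kept in the nucleus and act when released by stressed or dying cells. IL-1 beta and IL-18 are cut by caspase-1 in inflammasomes, and IL-33 is a nuclear alarmin of barrier and stromal cells. Each binds its own receptor chain, which then recruits a shared or related accessory chain and the adaptor MyD88. Their action is limited by an antagonist (IL-1RN), a decoy receptor (IL-1R2) and a binding protein (IL-18BP). IL-6 binds IL-6RA and signals through gp130, and TNF binds 2 receptors, TNFR1 and TNFR2. In lung these cytokines drive leukocyte recruitment and acute responses to injury.

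The windows below hold the 250 bases before the start sites of the genes on which the results turn, Il33, Il1rn and Il6ra, and of Il6 for its known response elements. They come from RefSeq on GRCm38.p6, a later build than the mm9 positions of the deposited tables. All 10 genes matched the RefSeq promoter table, with 15 start sites. Both Il33 starts are shown because the deposited tables hold a record for each, and their spacing was 20676 bases in the deposited tables and 20677 bases in the RefSeq table. For Il1rl1 these spacings differed, at 979 bases in the deposited tables and 10059 bases in the RefSeq table, so that its windows cannot be matched to its deposited records. Sequences run 5′ to 3′, and capitals mark matches to 5 motifs searched on both strands. The motifs were GGGNNNTTC, the core of the NF-kB motif, TTGCNNAA for C/EBP, TGANTCA for AP-1, TTCNNNGAA for STAT and TAAACA for forkhead factors. The Il33 windows are chr19:29924863-29925112, plus strand, and chr19:29945540-29945789, plus strand. The Il1rn window of the third start is chr2:24345121-24345370, plus strand, the Il6ra window chr3:89913197-89913446, minus strand, and the Il6 window chr5:30012864-30013113, plus strand.
Il33, upstream start: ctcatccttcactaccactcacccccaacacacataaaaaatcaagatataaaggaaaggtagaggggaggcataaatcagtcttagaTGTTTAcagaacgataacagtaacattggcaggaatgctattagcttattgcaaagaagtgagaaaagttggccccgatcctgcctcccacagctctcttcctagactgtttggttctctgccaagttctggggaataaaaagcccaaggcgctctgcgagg
Il33, downstream start: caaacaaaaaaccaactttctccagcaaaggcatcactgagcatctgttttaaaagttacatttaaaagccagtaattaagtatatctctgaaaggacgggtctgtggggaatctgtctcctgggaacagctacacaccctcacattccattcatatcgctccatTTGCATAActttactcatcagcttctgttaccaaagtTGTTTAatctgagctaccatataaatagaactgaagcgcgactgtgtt
Il1rn, start 3: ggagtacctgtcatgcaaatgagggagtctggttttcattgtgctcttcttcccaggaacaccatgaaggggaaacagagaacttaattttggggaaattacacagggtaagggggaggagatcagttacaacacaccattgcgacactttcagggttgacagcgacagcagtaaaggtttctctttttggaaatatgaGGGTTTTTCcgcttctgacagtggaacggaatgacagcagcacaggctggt
Il6ra: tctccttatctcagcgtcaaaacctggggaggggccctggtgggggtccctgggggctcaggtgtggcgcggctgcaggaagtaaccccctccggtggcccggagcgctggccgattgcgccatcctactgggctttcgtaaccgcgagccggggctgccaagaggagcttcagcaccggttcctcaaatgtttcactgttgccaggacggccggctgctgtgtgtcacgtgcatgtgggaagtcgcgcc
Il6: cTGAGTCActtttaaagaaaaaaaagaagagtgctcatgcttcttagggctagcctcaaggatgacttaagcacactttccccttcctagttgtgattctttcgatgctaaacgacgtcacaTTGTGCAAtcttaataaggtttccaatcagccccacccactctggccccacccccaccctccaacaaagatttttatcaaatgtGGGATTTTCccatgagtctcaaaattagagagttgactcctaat

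The forkhead letters TAAACA lay in 5 of the 15 windows of the 10 genes, and in 12.0% of all 32851 promoters in the table. These were both Il33 windows, both Il1rl1 windows and the Il1r2 window. In Il33 the match began at position -162 from the upstream start and at -48 from the downstream start. The NF-kB core was in 3 of the 15 windows (11.8% of all promoters), the C/EBP letters in 4 (9.56%), AP-1 in 2 (6.75%) and STAT in 1 (7.02%). The Il6 window held the NF-kB core at -44, the C/EBP letters at -128 and the AP-1 letters at -249 from the start. The Il6ra window held none of the 5, nor did the windows of Il1b, Il18 and Tnf. No matches of different motifs overlapped in these windows. A match describes letters only, and binding was not measured here.

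Il33 was the most abundant of the 10 genes in both pools and the one with the highest log2 ratio among those with a mean FPKM of 1 or more. Of the 10 genes, 6 reached that floor and 4 did not (Il1r2, Il1rl1, Il6 and Tnf). On the log2(FPKM + 1) scale, which understates differences of low genes, 2 of the 6 were at least 1.5-fold higher in the KO pool (Il33 and Il1rn) and 1 was at least 1.5-fold lower (Il6ra). Over all 12929 genes at the floor, 9.41% were higher and 4.63% lower by that measure. At least 2-fold on that scale, 0 of the 6 were higher and 0 lower, against 3.75% and 1.25% of all genes. The median log2 ratio was 0.56 over the 6 genes and 0.05 over all genes at the floor. By the plain FPKM ratio, 4 of the 6 were 1.5-fold higher or more and 1 was 1.5-fold lower or more, against 12.2% and 6.94% of all genes. The counting interval lay above 1 for 5 of the 6 and below 1 for 1, against 33.1% and 22% of all genes at the floor.

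**Figure D1:**
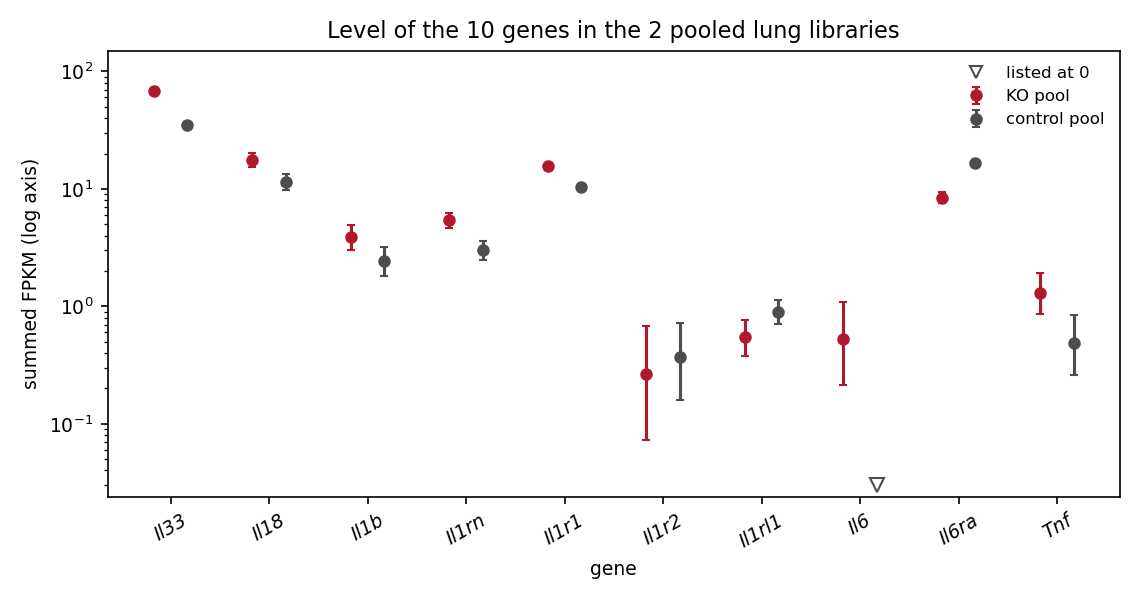
Summed FPKM (log axis) of the 10 genes in the KO pool (red, left of each pair) and the control pool (grey, right), with 95% counting intervals and 1 library per pool. Il33 is at the top with 67.7 FPKM in the KO pool and 34.7 FPKM in the control pool, Il6ra is the abundant gene that is lower in the KO pool, and the open triangle marks Il6, listed at 0 in the control pool.

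Among the ligands, Il33 (chromosome 19, from 29999604 to 30035205, mm9) had 67.7 FPKM in the KO pool (about 2173 reads) and 34.7 FPKM in the control pool (about 1430 reads). It was 1.95-fold higher in the KO pool (1.82 to 2.09), with a log2 ratio of 0.94 that exceeded those of 95.8% of genes at the floor. Alveolar type 2 cells are a known source of Il33 in mouse lung, and their 7 markers had a summed level of 19768 FPKM in the KO pool and 22245 FPKM in the control pool. None of these 7 was 1.5-fold higher or lower on the log2(FPKM + 1) scale. Marker counts here and below are on that scale, among markers at the floor. They stand against 9.41% of all genes at the floor higher and 4.63% lower. Fibroblast and smooth muscle markers summed to 1012 FPKM in the KO pool and 539 FPKM in the control pool, with 5 of 9 at least 1.5-fold higher and none lower. The 5 higher ones were the collagen genes Col1a1, Col1a2 and Col3a1 and the contractile genes Acta2 and Tagln. Pdgfra and Myh11 were higher, and Dcn and Tcf21 lower, by less than 1.5-fold. The 5 mesothelial markers summed to 121 FPKM in the KO pool and 84.1 FPKM in the control pool, with 2 at least 1.5-fold higher. The part of either list in the Il33 difference was not tested. In whole-lung RNA, more cells of a type and more RNA per cell cannot be told apart.

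Il33 has a record for each of its starts. The record of the upstream start had 64.9 FPKM in the KO pool and 34.7 FPKM in the control pool and was 1.87-fold higher (1.75 to 2.0). The record of the downstream start, whose promoter window is the second one printed, had 2.81 FPKM in the KO pool, from about 91 reads, and 4.6e-05 FPKM in the control pool, which is less than 1 read. It made up 4.15% of the gene's FPKM in the KO pool. Both records share most of their exons, so that their division is an estimate of the authors' software, and a value close to 0 can be a failed one.

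Il18 (chromosome 9, from 50373473 to 50389942, mm9) encodes a cytokine that induces interferon gamma in T and NK cells. It had 17.7 FPKM in the KO pool (about 194 reads) and 11.5 FPKM in the control pool (about 162 reads) on a short record of 866 bases. The gene was 1.53-fold higher in the KO pool (1.24 to 1.90), with a log2 ratio of 0.58, just under the 1.5-fold threshold on that scale. Il18bp, which encodes the protein that neutralises IL-18, had 7.01 FPKM in the KO pool and 3.36 FPKM in the control pool and was 2.09-fold higher (1.57 to 2.84); it and Il1a were chosen after their values were seen. Per length, the ratio of Il18bp to Il18 was 0.396 in the KO pool and 0.291 in the control pool, and the counting intervals of the 2 genes' folds overlapped. Of the receptor chains for IL-18, Il18r1 had 31.2 FPKM in the KO pool and 27.8 FPKM in the control pool. The accessory chain gene Il18rap was near the floor, at 0.969 FPKM in the KO pool and 1.14 FPKM in the control pool.

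Il1b (chromosome 2, from 129190316 to 129196856, mm9) encodes IL-1 beta, a fever-inducing cytokine made mainly by myeloid cells. It had 3.88 FPKM in the KO pool (about 65 reads) and 2.43 FPKM in the control pool (about 52 reads). The ratio was 1.60 (1.10 to 2.36), an interval that comes close to 1. Its sister gene Il1a, at 1.72 FPKM in the KO pool and 1.79 FPKM in the control pool, had a ratio of 0.962 (0.636 to 1.46). Neutrophil markers, of which 9 of 10 were in the tables and all 9 at the floor, summed to 97.0 FPKM in the KO pool and 62.4 FPKM in the control pool. Of these, 5 were at least 1.5-fold higher and none lower, against 9.41% and 4.63% of all genes at the floor. Markers of monocytes and interstitial macrophages summed to 275 FPKM in the KO pool and 175 FPKM in the control pool, with 6 of 10 at least 1.5-fold higher and none lower. The 10 alveolar macrophage markers were divided, with 1 at least 1.5-fold higher and 3 lower, and sums of 442 FPKM in the KO pool and 508 FPKM in the control pool. Without Car4, which had 37.1 FPKM in the KO pool and 122 FPKM in the control pool, the other 9 summed to 405 FPKM in the KO pool and 386 FPKM in the control pool. No marker of these 3 lists was at 0, and their part in the differences of Il1b, Il18, Il1rn and Tnf was not tested.

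Il1rn (chromosome 2, from 24192380 to 24207011, mm9) encodes the antagonist that occupies the IL-1 receptor without signalling. It had 5.39 FPKM in the KO pool (about 165 reads) and 3.02 FPKM in the control pool (about 119 reads), and was 1.79-fold higher (1.40 to 2.27). The ratio of Il1rn to Il1b was 1.39 in the KO pool and 1.24 in the control pool, and the intervals of both genes' folds overlapped. Of its 3 records, the one of the second start had 4.60 FPKM in the KO pool and 2.74 FPKM in the control pool, 1.68-fold higher (1.30 to 2.18). The record of the third start, whose window is printed above with an NF-kB core at -51 from the start, had 0.795 FPKM in the KO pool (about 25 reads) and 0.284 FPKM in the control pool (about 11 reads). It was 2.80-fold higher (1.38 to 6.56) and held 14.7% of the gene's FPKM in the KO pool and 9.41% in the control pool. This record starts at 24200891 and the more abundant record at 24200811 (mm9), and both end at 24207011. Their division is therefore an estimate of the authors' software, and the intervals of both records leave out its error. A rise specific to either start was not tested. The window of the second start, whose record held 85.3% of the gene's FPKM in the KO pool and 90.6% in the control pool, had no match to the 5 motifs. That second start, at 24345291 on GRCm38.p6, lies inside the printed window and upstream of its NF-kB core. The record of the first start was below 1 read in both pools.

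**Figure D2:**
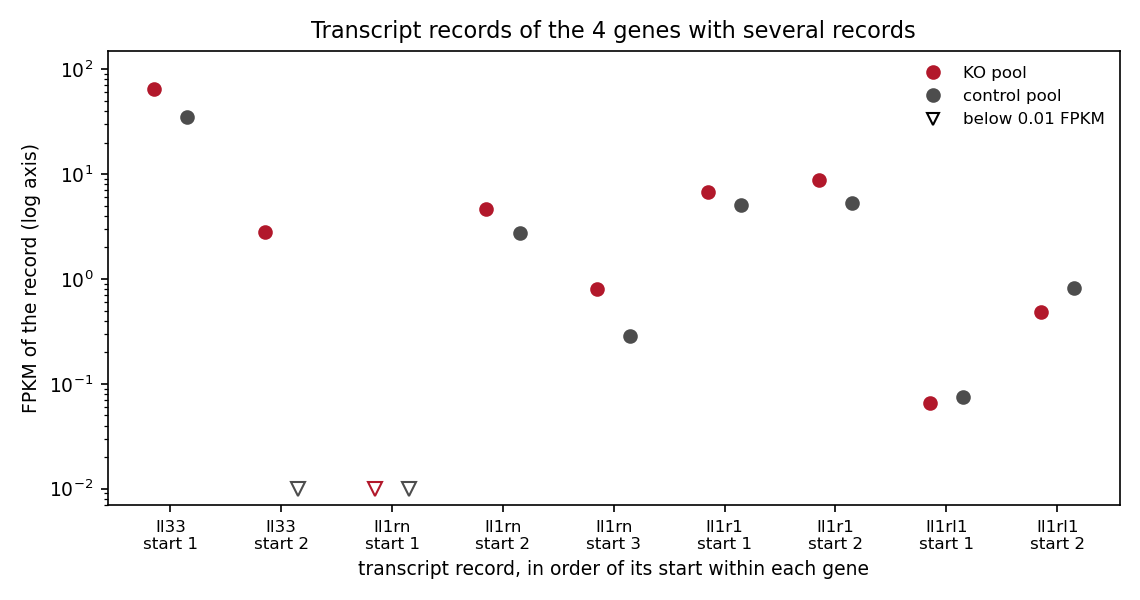
FPKM (log axis) of each transcript record of the 4 genes with several records, in the order of their starts within the gene, for the KO pool (red, left) and the control pool (grey, right). Open triangles stand for values below 0.01 FPKM. The downstream Il33 record has 2.81 FPKM in the KO pool and a value near 0 in the control pool.

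Among the receptors of the IL-1 family, Il1r1 exceeded its decoy counterpart Il1r2 per length by 58.7-fold in the KO pool and 28.1-fold in the control pool. These folds are uncertain, because they rest on about 4 reads of Il1r2 in the KO pool and 8 reads in the control pool. Il1r1 (chromosome 1, from 40281925 to 40373022, mm9), the signalling receptor for IL-1, had 15.5 FPKM in the KO pool (about 939 reads) and 10.4 FPKM in the control pool (about 804 reads). It was 1.497-fold higher in the KO pool (1.36 to 1.65), with a log2 ratio of 0.54. Both of its records, as divided by the authors' software, were higher in the KO pool. The record of the upstream start had 6.71 FPKM in the KO pool and 5.06 FPKM in the control pool, and that of the downstream start 8.81 FPKM in the KO pool and 5.30 FPKM in the control pool. The shared accessory chain gene Il1rap, at 7.47 FPKM in the KO pool and 6.78 FPKM in the control pool, had an interval that included 1 (0.930 to 1.22). Il1rap over Il1r1 was 0.482 in the KO pool and 0.654 in the control pool.

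Il1r2 (chromosome 1, from 40141613 to 40182070, mm9), the decoy receptor of myeloid cells that lacks the signalling domain, had 0.264 FPKM in the KO pool and 0.369 FPKM in the control pool. These values rest on about 4 reads in the KO pool and 8 reads in the control pool, and a difference was not detectable at this depth, with an interval of the ratio of 0.141 to 2.39. Il1rl1 (chromosome 1, from 40496494 to 40522259, mm9) encodes ST2, the receptor for IL-33 on mast cells, basophils and group 2 innate lymphoid cells. It had 0.549 FPKM in the KO pool (about 34 reads) and 0.897 FPKM in the control pool (about 71 reads), and was 1.63-fold lower in the KO pool (1.07 to 2.53). Most of its FPKM came from the longer record, at 0.484 FPKM in the KO pool and 0.822 FPKM in the control pool. The shorter record, which ends before the last exons of the longer one, rested on about 2 reads in the KO pool and 4 reads in the control pool. Per length, Il33 exceeded Il1rl1 by 123-fold in the KO pool and 38.7-fold in the control pool.

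Among markers of cells that carry ST2, those of mast cells and basophils were scarce. Of 8 mast cell and basophil markers only Hdc, which other cells also express, reached the floor. Tpsb2 was listed at 0 in both pools, Mcpt8 and Ms4a2 in the KO pool and Fcer1a in the control pool. The list summed to 21.9 FPKM in the KO pool and 15.03 FPKM in the control pool, and its 7 genes other than Hdc summed to 1.43 FPKM in each pool. T cell and innate lymphoid markers summed to 12.5 FPKM in the KO pool and 19.4 FPKM in the control pool, with 7 of 10 at the floor, none at least 1.5-fold higher, 2 lower, and Il13 at 0 in both. Among them Gata3, a transcription factor of T helper and innate lymphoid cells that other lung cells also express, had 0.892 FPKM in the KO pool and 3.74 FPKM in the control pool and was chosen after its values were seen. Without Gata3, the other 9 markers of that list summed to 11.6 FPKM in the KO pool and 15.7 FPKM in the control pool. The part of either list in the Il1rl1 difference was not tested.

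**Figure D3:**
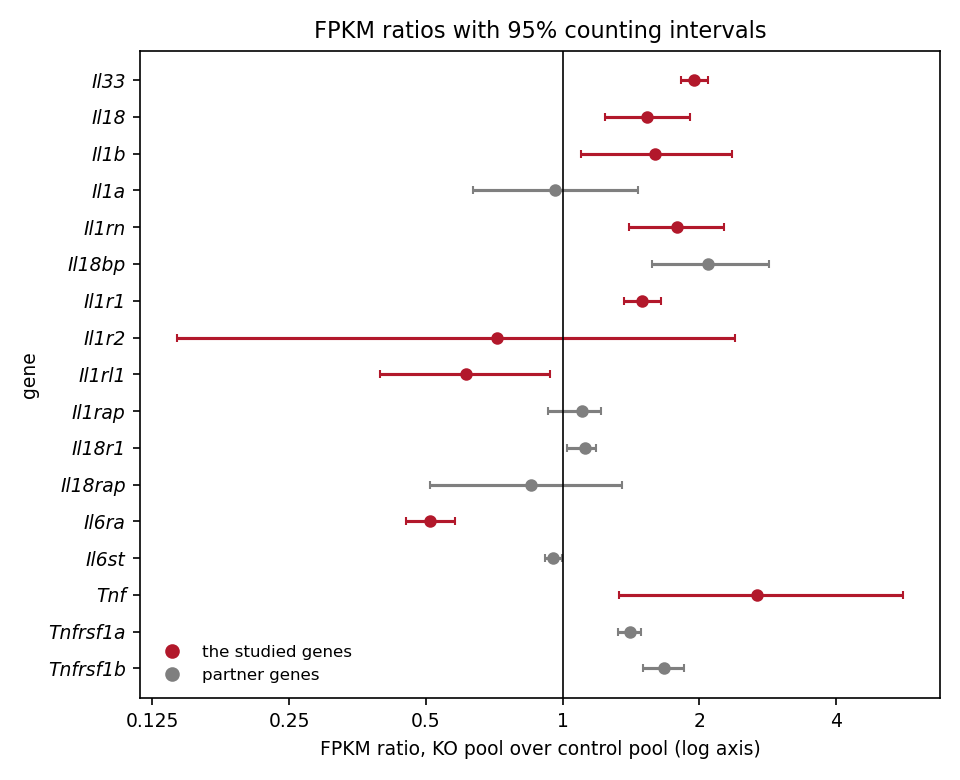
FPKM ratio of the KO pool over the control pool (log axis) with 95% counting intervals, for 9 of the 10 genes (red) and for partner genes (grey). Il6 is left out because it was listed at 0 in the control pool. Il33, Il18, Il1b, Il1rn, Il1r1 and Tnf lie above 1 with their intervals, Il6ra and Il1rl1 lie below 1, and the interval of Il1r2 spans 1.

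In the IL-6 family the receptor gene Il6ra was lower in the KO pool while its signalling partner was almost level. Il6ra (chromosome 3, from 89673246 to 89717084, mm9), which encodes the IL-6-binding chain, had 8.42 FPKM in the KO pool (about 357 reads) and 16.5 FPKM in the control pool (about 894 reads). It was 1.95-fold lower (1.72 to 2.21), and 1.70% of genes at the floor had a lower log2 ratio than its -0.89. Il6st, which encodes gp130, had 53.3 FPKM in the KO pool and 55.8 FPKM in the control pool (ratio 0.954, 0.914 to 0.996). The ratio of Il6st to Il6ra was therefore 6.33 in the KO pool and 3.39 in the control pool. Il6 (chromosome 5, from 30339701 to 30346508, mm9) had 0.528 FPKM in the KO pool, from about 7 reads, and was listed at 0 in the control pool. In the control library 3 reads would give it 0.170 FPKM. No fold is given for it.

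Il6ra is expressed by leukocytes such as neutrophils, macrophages and T cells. The neutrophil and monocyte lists were higher in the KO pool and the lymphoid list lower, by the sums given above. The alveolar macrophage list was divided, with 1 of 10 markers at least 1.5-fold higher and 3 lower. Airway epithelial markers summed to 23790 FPKM in the KO pool and 36964 FPKM in the control pool, with 3 of 5 at least 1.5-fold lower. Endothelial markers summed to 770 FPKM in the KO pool and 961 FPKM in the control pool, with 3 of 7 at least 1.5-fold lower. Among the remaining lists, B cell markers summed to 42.0 FPKM in the KO pool and 32.6 FPKM in the control pool, dendritic cell markers to 20.0 FPKM in the KO pool and 22.8 FPKM in the control pool (15.1 FPKM in the KO pool and 13.5 FPKM in the control pool without Clec9a), and alveolar type 1 markers to 2286 FPKM in the KO pool and 2821 FPKM in the control pool. The part of these cell types in the Il6ra difference was not tested.

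**Figure D4:**
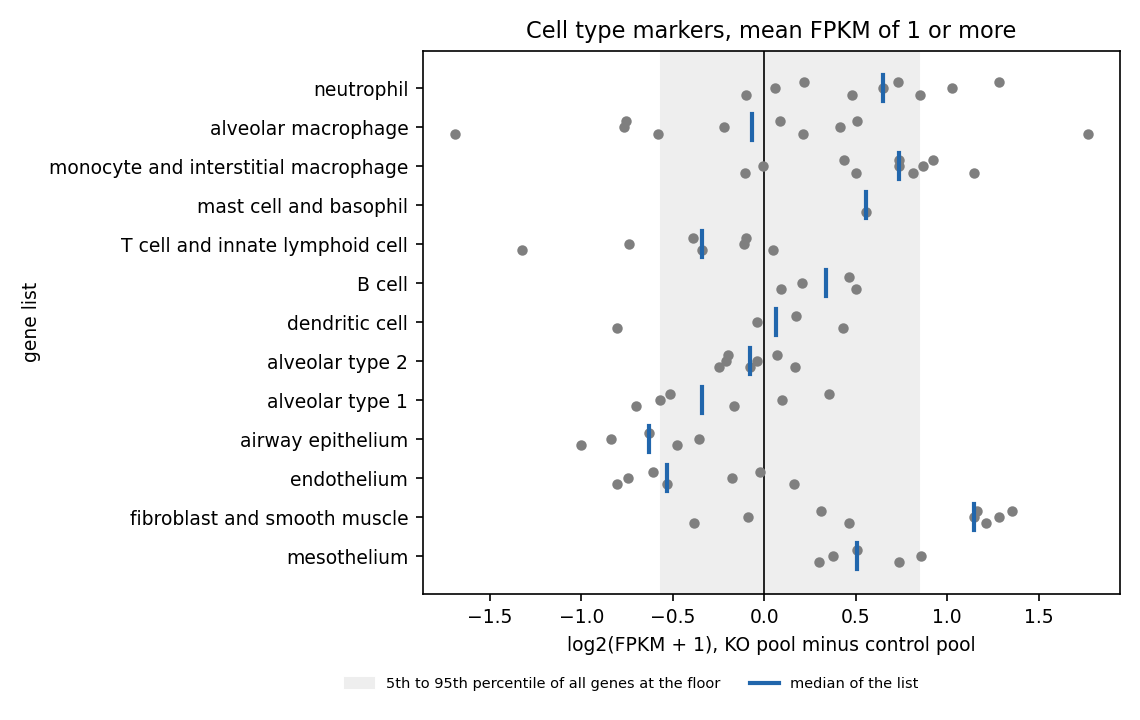
Log2(FPKM + 1) of the KO pool minus the control pool for markers of 13 cell types with a mean FPKM of 1 or more, 1 point per gene, with the median of each list in blue and the 5th to 95th percentile of all genes shaded. Most neutrophil and monocyte markers lie above 0, and all 5 airway markers lie below it.

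Tnf (chromosome 17, from 35336336 to 35338941, mm9), the founding cytokine of its family, had 1.31 FPKM in the KO pool and 0.490 FPKM in the control pool. These values rest on about 27 reads in the KO pool and 13 reads in the control pool, and the ratio was 2.67 (1.33 to 5.62). Its mean lay under the floor, so it is not among the counts above. Tnfrsf1a, the broadly expressed TNF receptor, had 88.8 FPKM in the KO pool and 63.2 FPKM in the control pool and was 1.40-fold higher (1.32 to 1.49). Tnfrsf1b, the receptor of leukocytes and endothelium, had 13.8 FPKM in the KO pool and 8.29 FPKM in the control pool and was 1.67-fold higher (1.51 to 1.85).

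The order of levels among the 10 genes was similar in both pools. After Il33, the KO pool had Il18 and Il1r1, whose counting intervals overlapped, then Il6ra, then Il1rn and Il1b, which overlapped as well. The control pool had Il6ra second, followed by Il18 and Il1r1 with overlapping intervals and by Il1rn and Il1b, again overlapping. Il6ra thus stood below Il18 and Il1r1 in the KO pool only. Among the 4 genes below the floor, the KO intervals overlapped in every pair except Tnf with Il1rl1 and Tnf with Il1r2. The control intervals overlapped in every pair except Il6 with Tnf and Il6 with Il1rl1.

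The other genes of these pathways were described by 10 lists of ligands, receptors, processing enzymes and signalling proteins, with 104 different genes at the floor, the 6 above included. In the KO pool 16 of them (15.4%) were higher by 1.5-fold or more on the log2(FPKM + 1) scale, against 9.41% of all genes at the floor, and 3 (2.88%) were lower, against 4.63%. All counts by list below are on that scale and stand against the same 2 shares. Without the 10 genes, 14 of 98 (14.3%) were higher and 2 (2.04%) were lower.

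In the IL-1 ligand and antagonist list, 3 of 7 genes at the floor were at least 1.5-fold higher (Il33, Il1rn and Il18bp) and none was lower, with a median log2 ratio of 0.58. The lowest was Il1f9, which encodes IL-36 gamma, at 1.42 FPKM in the KO pool and 1.74 FPKM in the control pool. Listed at 0 in both pools were 4 of the 11 genes (Il1f5, Il1f6, Il1f8 and Il1f10). None of the 6 receptor genes at the floor passed 1.5-fold on that scale in either direction (median 0.14). With the most abundant transcript only, 1 receptor gene was higher, Il1r1 at 0.64 (10.6% of all genes). Among 11 genes of inflammasomes and cytokine processing, 4 were at least 1.5-fold higher and none was lower (median 0.22), and the 4 became 2 with libraries scaled to equal upper quartiles, with the median log2 ratio of all genes set to 0 or with a pseudocount of 3. Casp4, the caspase of the non-canonical inflammasome, had 7.24 FPKM in the KO pool and 3.63 FPKM in the control pool and was 2.0-fold higher (1.51 to 2.66). The remaining 3 were Pycard, the inflammasome adaptor, and the sheddase genes Adam17 and Adam10, whose proteins release TNF and IL-6RA from the cell surface. Adam10 had 43.5 FPKM in the KO pool and 28.4 FPKM in the control pool, 1.53-fold higher (1.44 to 1.62). Casp1, which cuts the IL-1 beta and IL-18 precursors, had 4.14 FPKM in the KO pool and 3.89 FPKM in the control pool, with an interval that included 1 (0.774 to 1.44). Nek7, a kinase that binds NLRP3, was the lowest at 24.7 FPKM in the KO pool and 33.8 FPKM in the control pool. Pycard, Adam17 and Casp1 were chosen after their values were seen.

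Signalling genes below the IL-1 and Toll receptors stayed within 1.5-fold on the log2(FPKM + 1) scale in all 14 cases (median 0.02). They reached from Peli2, a ubiquitin ligase gene at 4.03 FPKM in the KO pool and 6.25 FPKM in the control pool, to the adaptor gene Myd88, at 26.8 FPKM in the KO pool and 19.3 FPKM in the control pool. Between them lay Tollip, an inhibitory adaptor gene at 28.7 FPKM in the KO pool and 28.0 FPKM in the control pool. So did Ube2n, which encodes a ubiquitin-conjugating enzyme and had 27.2 FPKM in the KO pool and 20.9 FPKM in the control pool. With the most abundant transcript only, 1 gene of this list was at least 1.5-fold higher (10.6% of all genes). A pseudocount of 0.1 left 1 gene at least 1.5-fold lower (6.71%). By the plain ratio Peli2 was 1.55-fold lower (1.35 to 1.79), and 6.94% of all genes at the floor were at least 1.5-fold lower by that ratio.

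**Figure D5:**
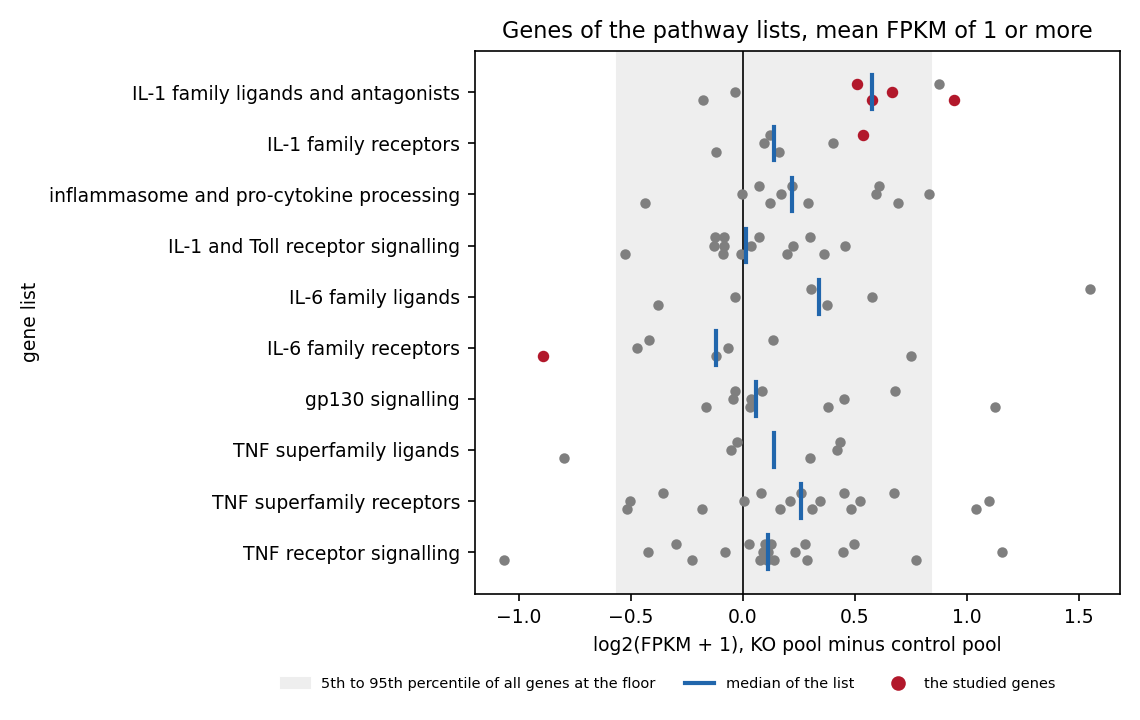
Log2(FPKM + 1) of the KO pool minus the control pool for the genes of the 10 pathway lists with a mean FPKM of 1 or more, 1 point per gene (Il33, Il18, Il1b, Il1rn, Il1r1 and Il6ra in red), with list medians in blue and the 5th to 95th percentile of all genes shaded. Lif is farthest to the right, at 1.55, and Traf1 farthest to the left, at -1.07.

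Of the IL-6 family ligand genes, 6 were at the floor, with 1 at least 1.5-fold higher, none lower and a median of 0.34. This was Lif, which encodes leukemia inhibitory factor and had 3.55 FPKM in the KO pool and 0.549 FPKM in the control pool, 6.45-fold higher (4.39 to 9.40). Clcf1, a cytokine gene of the family, had 4.73 FPKM in the KO pool and 4.87 FPKM in the control pool. Ctf1, the cardiotrophin 1 gene, was lowest at 3.28 FPKM in the KO pool and 4.55 FPKM in the control pool. Of 7 receptor genes, Osmr, the oncostatin M receptor gene, was the only one at least 1.5-fold higher, at 27.3 FPKM in the KO pool and 15.8 FPKM in the control pool (1.73-fold, 1.61 to 1.86). Il6ra was the only one lower by 1.5-fold on the log2(FPKM + 1) scale (median -0.12), and by the plain ratio Cntfr, chosen after its values were seen, was 1.55-fold lower (1.19 to 2.28). Of 10 gp130 signalling genes, 2 were at least 1.5-fold higher and none lower (median 0.06). Socs3, the feedback inhibitor of gp130 signalling, had 18.8 FPKM in the KO pool and 8.07 FPKM in the control pool and was 2.33-fold higher (2.05 to 2.66). Its relative Socs1, chosen after its values were seen, was 1.81-fold higher (1.28 to 2.58). Stat3, the main transcription factor of the pathway, had 57.2 FPKM in the KO pool and 41.5 FPKM in the control pool (1.38-fold, 1.31 to 1.45). The kinase genes Jak1 (45.9 FPKM in the KO pool, 43.2 FPKM in the control pool) and Tyk2 (8.75 FPKM in the KO pool, 9.90 FPKM in the control pool) differed less.

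Of 6 TNF superfamily ligand genes at the floor, 1 was at least 1.5-fold lower and none was higher (median 0.14). Tnfsf10, which encodes the death ligand TRAIL, had 19.7 FPKM in the KO pool and 35.0 FPKM in the control pool and was 1.77-fold lower (1.66 to 1.90). Tnfsf13b, which encodes the B cell survival factor BAFF, was the highest, at 16.8 FPKM in the KO pool and 12.1 FPKM in the control pool. Tnfsf12 (TWEAK) had 27.5 FPKM in the KO pool and 28.5 FPKM in the control pool. Among 17 receptor genes, 3 were at least 1.5-fold higher on the log2(FPKM + 1) scale and none lower (median 0.26). Tnfrsf12a, the TWEAK receptor gene, had 38.9 FPKM in the KO pool and 17.6 FPKM in the control pool and was 2.21-fold higher (1.90 to 2.58). The others were Tnfrsf10b, the TRAIL receptor gene, at 6.62 FPKM in the KO pool and 2.70 FPKM in the control pool, chosen after its values were seen, and Tnfrsf1b. Tnfrsf25, a receptor gene of T cells, was the lowest at 2.09 FPKM in the KO pool and 3.42 FPKM in the control pool, 1.64-fold lower by the plain ratio (1.13 to 2.44), and the abundant Ltbr had 41.3 FPKM in the KO pool and 34.3 FPKM in the control pool.

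Of 20 TNF receptor signalling genes, 2 were higher by that measure and 1 was lower (median 0.11). The higher ones were Ripk3 and, chosen after its values were seen, Mlkl, which encode the kinase and the membrane-rupturing effector of necroptosis. Ripk3 had 11.8 FPKM in the KO pool and 4.73 FPKM in the control pool and was 2.49-fold higher (2.0 to 3.01), and Mlkl had 7.67 FPKM in the KO pool and 4.07 FPKM in the control pool. Traf1, an adaptor gene induced by NF-kB, had 8.55 FPKM in the KO pool and 19.0 FPKM in the control pool and was 2.22-fold lower (1.92 to 2.57). Cflar, whose protein restrains caspase-8, had 22.4 FPKM in the KO pool and 30.3 FPKM in the control pool, and Rbck1, a subunit gene of the linear ubiquitin ligase, had 34.5 FPKM in the KO pool and 31.9 FPKM in the control pool.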

How the data were processed

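Total RNA of pooled mouse lungs was sequenced in 1 library per genotype. The authors deposited FPKM values and coverage, a read depth, for RefSeq transcripts, per the file headers. The submitters' processing notes name mm9 and DESeq without its role (aligner and quantification tool: not given in the sources used here). Within each library, coverage and FPKM were proportional.

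FPKM was summed over the transcripts of a symbol. Log2 ratios subtract log2(FPKM + 1) in the control library from that in the KO library. The floor was a mean FPKM of 1 and the threshold 1.5-fold. The bases of 1 read were estimated from coverage times length in single-transcript genes with few reads and a record longer than 1000 bases. The median of the values within a preset window of 36 to 68 bases, 48.0 bases (KO) and 48.2 bases (control), was taken as 1 read. Intervals of FPKM ratios are exact conditional (Clopper-Pearson) for estimated reads, summed over the records of a gene and scaled per library. For genes with several records of unlike length, they need not centre on the ratio of summed FPKM. FPKM depends on the library total, so abundant transcripts can shift other values. Starts were converted to counting from 1. The code was tested on simulated data (Python 3.11.15, scipy 1.17.1).

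The genes and lists were chosen with earlier results of these data known. Named are the 10 genes, their partners, and of each list the genes at the floor with the highest and lowest log2 ratio and the 2 with the highest mean FPKM; other names were chosen after values were seen, and 1 gene that the rule names is not reported here.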

Additional observations from a re-analysis of the deposited data

How the results depend on the processing

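The alternatives were pseudocounts of 0.1 and 3, 2 other floors, 3 scalings, the most abundant transcript only, and records with status OK only. Direction held for all 10 genes under the 3 scalings and for the 4 genes with several records under their most abundant transcript; the other settings cannot turn it. Il33 ranged from 0.88 to 0.96 on the log2 scale, Il6ra from -0.96 to -0.77, Il1rn from 0.48 to 0.82, Il1b from 0.34 to 0.65 and Tnf from 0.30 to 1.26. The count of 2 genes at least 1.5-fold higher was 4 with a pseudocount of 0.1 (11.8% of all genes), when the median log2 ratio moved to 0.63, and 4 without a floor (7.65%), when Il6 and Tnf entered. A pseudocount of 3 (6.39% of all genes) or a floor of 5 (8.20%) left 1, Il33, without Il1rn. With the most abundant transcript only (10.6%), the count stayed at 2 but the genes were Il33 (0.88) and Il1r1 (0.64). Il1rn, at 0.58, then lay just under the threshold. At a threshold of 2-fold, 0 of the 6 genes at the floor were higher and 0 lower. Among the pathway lists, 6 genes in place of 3 were lower with a pseudocount of 0.1, and at 2-fold 5 were higher and 1 lower. Scaling to a median of 0 left 8.12% of all genes higher and 5.55% lower. No paired analysis was possible because each genotype has 1 library, and for the same reason no library could be left out. Depth limits Il1r2, Il6 and Tnf, which rest on fewer than 30 reads per library.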
